A study of Mus musculus with 6 samples.

Results

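The p53 response genes described here are a list of 32 mouse genes. It holds the p53 gene Trp53, genes that control the p53 protein, and genes grouped with the p53 response. Many of the last, though not all, are known to be switched on by p53. The list was measured in HM1, a line of mouse embryonic stem (ES) cells, on 6 Affymetrix arrays. Each gene was read from the probe set that names it alone and, where there were several, from the one with the highest mean over the arrays. This gave values for 30 of the 32 genes, out of 19938 genes in the table, each from 1 probe set. Trp53 itself and Bax, a pore-forming protein of apoptosis, were not analysed here.

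The control group (3 arrays) was transfected with the empty plasmid pCAGIP.puro, and the Prmt6 overexpression group (3 arrays) with the same plasmid carrying mouse Prmt6. Prmt6 is a nuclear protein arginine methyltransferase. Both groups grew in 15% serum with LIF, the cytokine that keeps mouse ES cells undifferentiated, at 1000 U/ml, and both were selected for 3 days with 1 ug/ml puromycin, so controls had the same drug exposure. Nothing in the labels says that the replicates came from separate cultures. The p-values therefore rest on the spread among these arrays, and that spread may be technical.

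p53 is a transcription factor that cells stabilise after DNA damage and other stress. Its targets stop the cell cycle, repair DNA, adjust metabolism or start apoptosis, and some feed back on p53: Mdm2 marks p53 for destruction, and its relative Mdm4 (MdmX) covers the domain with which p53 activates genes. Many targets also answer to other signals, so their levels do not measure p53 activity alone. Whether p53 protein or its activity differed between the groups was not measured.

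With the Prmt6 plasmid, 4 of these 30 genes rose and 6 fell, while 20 did not pass the test (limma, Benjamini-Hochberg adjustment over all genes, threshold 0.05). Gadd45g had the largest rise, 1.93-fold, followed by Gadd45b, Plk2 and Phlda3, and Mdm4 had the largest fall, to 0.643 of its control level. Pmaip1, Dcxr, Ercc5, Zmat3 and Trp53inp1 fell as well. Several of the best known p53 targets did not pass, among them Mdm2, Ccng1 and Bbc3. In the whole table, 7.05% of genes rose and 3.25% fell, 10.3% in all, and 33.3% of the measured members were called. Bright probe sets are called more often: among genes with a mean at or above the median gene mean 16.1% were called, against 10 of the 28 members in that range, or 35.7%. The median percentile of the members' mean signals was 83.9, so this cut is coarse for them. The members were chosen with earlier results of these arrays known, so these shares are a description without a test. Falls among the members numbered 2 without control replicate 1 or 2 (1.4% and 1.61% of all genes) and 3 without control replicate 3 (1.49%). They were 3 as well without overexpression replicate 2 (1.65% of all genes) or 3 (2.47%), and 6 without overexpression replicate 1 (3.83%). Falls over all genes thus also became fewer in most of these fits. In a fit of only the genes at or above the median gene mean, 10 of the 28 members fell, where 10.8% of genes fell. In that fit 5 members rose, where 19.4% of genes rose.

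The median difference of the members was -0.072 on the log2 scale, against 0.0 for all genes. Of the members, 20 lay below 0 and 10 above, or 66.7% below, where 49.6% of all genes lay below 0. The median was -0.033 without overexpression replicate 2 and -0.025 with each array centred on its median, and it lay between -0.093 and -0.025 over all settings. In 16 members the 3 overexpression arrays lay wholly on 1 side of the 3 control arrays, 5 higher and 11 lower. That is 53.3% of them, against 29.7% of all genes (17.0% higher and 12.7% lower). The share was not computed for genes as bright as the members, so brightness may account for part of this contrast, which was not tested. No member differed by 1 or more on the log2 scale.

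**Figure D1:**
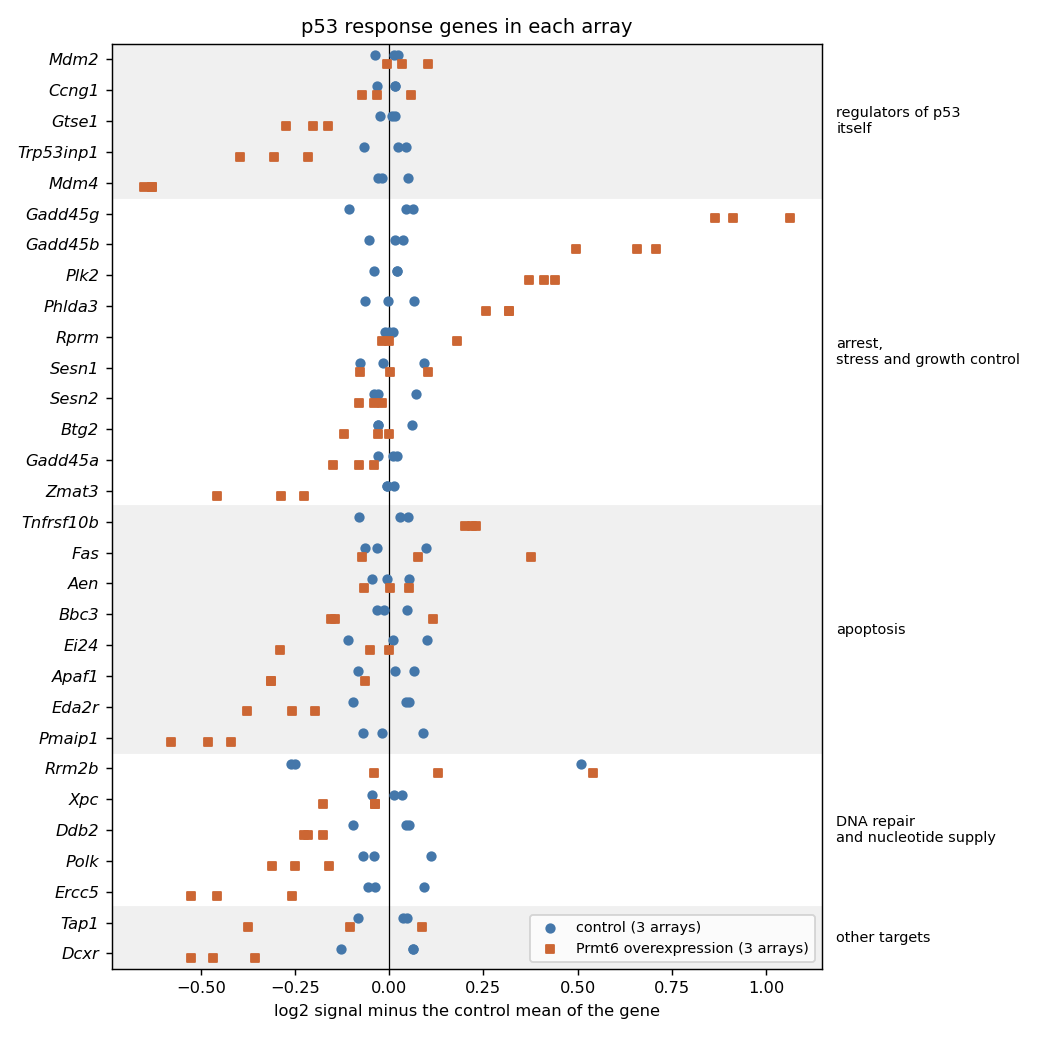
Each row is a p53 response gene, and each point is 1 array, as its log2 signal minus the mean of the 3 control arrays (circles, control; squares, Prmt6 overexpression). Gadd45g, Gadd45b, Plk2 and Phlda3 stand to the right of their controls. Mdm4, Pmaip1, Dcxr, Ercc5, Zmat3 and Trp53inp1 stand to the left, and most other genes lie closer to their controls.

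Arrays of the same group resembled each other closely over all probe sets, with Pearson correlations from 0.991 to 0.992 in control, from 0.986 to 0.99 in overexpression and from 0.98 to 0.987 between the groups. Prmt6 itself read 6.84, 6.58 and 7.12 in control and 7.32, 7.40 and 7.33 in overexpression (log2). Its rise on this probe set was 1.42-fold (0.5 ± 0.13, log2, SE, n = 3 per group), not far past the threshold (limma, adjusted p = 0.0406). Of 16 ES cell markers, 1 rose and 3 fell, and their summed linear signal ran from 24642 to 25799 in control and from 24534 to 24741 in overexpression. Some markers of other cell types rose. Over all genes, 7.05% rose and 3.25% fell. Of 12 fibroblast markers, 6 rose and 6 did not pass (summed signal 675 to 725 in control and 926 to 1005 in overexpression). Of 7 endoderm markers, 3 rose and 4 did not pass (292 to 309, then 367 to 394). Of 7 trophoblast markers, 3 rose and 4 did not pass (466 to 491, then 576 to 626), among them Tfap2c at -0.22 and Elf5 at -0.25. A log2 array signal has no true zero. The dimmest of these markers was the fibroblast gene Lum, at 2.59 in control and 2.65 in overexpression. The part of such cells in the differences below was not tested. In these bulk samples, fewer cells of a type and less RNA per cell cannot be told apart.

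Among the genes that control p53 itself, Mdm4 fell while Mdm2 did not pass. Mdm4 read 9.82, 9.81 and 9.89 in control and 9.21, 9.21 and 9.19 in overexpression. The arrays within each group almost coincided, and the groups stood well apart. The difference was -0.64 ± 0.067 (log2, SE, n = 3 per group, adjusted p = 0.000578), a control level 1.55-fold that of overexpression, and the call held in all 14 alternative settings (adjusted p up to 0.00516). Mdm2, whose gene is itself a classical p53 target, read 10.28, 10.23 and 10.29 in control and 10.37, 10.30 and 10.26 in overexpression. Its groups overlapped, at 0.043 ± 0.069 (95% interval -0.12 to 0.2, adjusted p = 0.768) and at -0.032 under quantile normalization.

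The unequal change of these partners can be read within each array, where scaling cancels. The change of Mdm4 minus that of Mdm2 was -0.68, with the overexpression arrays between -0.73 and -0.64 and the control arrays between -0.033 and 0.027 around their mean. An exact two-sided permutation test gave p = 0.1, the smallest that 3 arrays against 3 allow. Adjusted over the 5 gene pairs compared in this way, it was 0.125. The pairs were chosen after values were seen, so this test cannot serve as support for an unequal change.

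**Figure D2:**
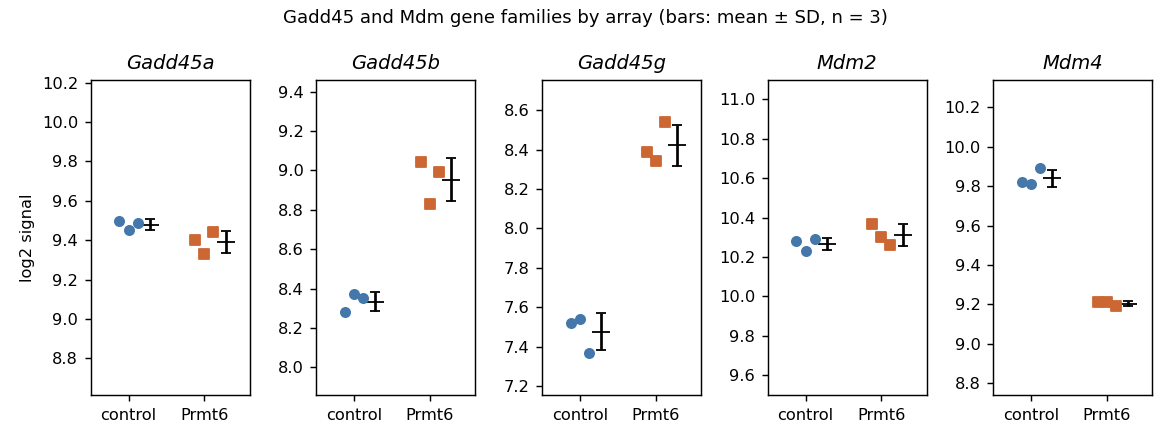
Log2 signal of Gadd45a, Gadd45b, Gadd45g, Mdm2 and Mdm4 in each control (circles) and Prmt6 overexpression (squares) array, with the mean and SD (n = 3) beside each group; all panels span the same range of log2 units. Gadd45b, Gadd45g and Mdm4 separate fully by group, and Mdm2 overlaps. The Gadd45a groups do not overlap either, but their means differ by only 0.09.

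Trp53inp1, a stress protein that aids p53 and autophagy, fell from 11.20, 11.29 and 11.31 to 11.05, 10.87 and 10.96. Each overexpression array lay below each control array, by a modest margin (-0.31 ± 0.077, adjusted p = 0.0409). Its call held without overexpression replicate 1 (adjusted p = 0.0327) and ended without any other 1 array (0.079 to 0.147) or with arrays centred on medians (0.0754). Ccng1, the cyclin G1 gene and a strong p53 target in many tissues, read 11.72, 11.67 and 11.72 in control and 11.76, 11.67 and 11.63 in overexpression, so its groups overlapped. It was at -0.017 ± 0.071 (adjusted p = 0.921), and at 0.03 with arrays centred on medians. Gtse1, a microtubule-binding protein of G2 that takes p53 out of the nucleus, read 9.61, 9.57 and 9.60 against 9.43, 9.39 and 9.32. Its groups did not overlap, but the difference of -0.21 ± 0.069 did not pass (adjusted p = 0.0931).

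All 4 rises were among the 10 genes of arrest, stress and growth control, where 1 gene fell and 5 did not pass. Of all genes, 7.05% rose and 3.25% fell, 10.3% in all. The groups by role are small, and differences between them were not tested. The Gadd45 family led the rises. Its small acidic proteins bind cell cycle and repair factors and activate a stress kinase cascade. Gadd45g read 7.52, 7.54 and 7.37 in control and 8.39, 8.34 and 8.54 in overexpression, so that the lowest overexpression array was well above the highest control array. It rose by 0.95 ± 0.085 on the log2 scale (adjusted p = 0.000231).

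Gadd45b read 8.28, 8.37 and 8.35 in control and 9.04, 8.83 and 8.99 in overexpression, again without overlap. It rose 1.54-fold (0.62 ± 0.08, adjusted p = 0.00179), and both calls held in all 14 alternative settings. Gadd45a, the member of the family best known as a direct p53 target, did not pass the test. It read 9.50, 9.45 and 9.49 in control and 9.40, 9.33 and 9.44 in overexpression, slightly lower in each array, at -0.09 ± 0.069 (95% interval -0.25 to 0.068, adjusted p = 0.485). Within arrays, the change of Gadd45g exceeded that of Gadd45a by 1.04 and the change of Gadd45b exceeded it by 0.71, and the overexpression arrays lay apart from the control arrays in both cases. The exact permutation test gave p = 0.1 for each, the smallest possible here (0.125 adjusted over the 5 pairs).

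The promoters of the 3 Gadd45 genes and of Plk2 are shown because 3 of these genes rose and Gadd45a did not. Each run is the 250 bases before the RefSeq start of the gene, 5′ to 3′ on the strand of the gene (GRCm38.p6), with capitals on matches on either strand to the TATA box core TATAAA, the CCAAT box, the E-box CACGTG, the GC box GGGCGG, the cyclic AMP response element TGACGTCA or the p53 half-site. Gadd45a is at chr6:67037408-67037657 on the minus strand, and the other three are on the plus strand, Gadd45b at chr10:80929841-80930090, Gadd45g at chr13:51846425-51846674 and Plk2 at chr13:110394794-110395043.
Gadd45a: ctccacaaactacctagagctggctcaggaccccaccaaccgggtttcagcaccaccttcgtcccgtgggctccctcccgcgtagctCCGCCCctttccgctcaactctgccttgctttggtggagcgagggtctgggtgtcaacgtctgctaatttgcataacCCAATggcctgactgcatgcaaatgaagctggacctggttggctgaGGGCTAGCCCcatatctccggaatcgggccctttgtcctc
Gadd45b: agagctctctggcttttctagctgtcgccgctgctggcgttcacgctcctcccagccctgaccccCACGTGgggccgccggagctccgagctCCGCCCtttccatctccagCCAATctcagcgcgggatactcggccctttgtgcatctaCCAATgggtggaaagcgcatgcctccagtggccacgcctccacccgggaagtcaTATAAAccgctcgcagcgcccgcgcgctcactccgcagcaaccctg
Gadd45g: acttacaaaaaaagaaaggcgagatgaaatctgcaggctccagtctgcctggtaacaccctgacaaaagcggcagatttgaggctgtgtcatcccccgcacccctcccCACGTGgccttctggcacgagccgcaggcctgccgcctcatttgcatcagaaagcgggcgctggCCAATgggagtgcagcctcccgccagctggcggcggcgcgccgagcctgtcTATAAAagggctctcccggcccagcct
Plk2: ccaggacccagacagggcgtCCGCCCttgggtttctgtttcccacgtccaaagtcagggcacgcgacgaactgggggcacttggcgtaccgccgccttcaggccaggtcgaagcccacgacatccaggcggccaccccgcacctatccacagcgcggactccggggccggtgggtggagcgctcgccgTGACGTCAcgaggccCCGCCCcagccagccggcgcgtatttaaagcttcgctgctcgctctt
The promoters of Gadd45b and Gadd45g both held TATAAA, where transcription complexes assemble, with its first base 46 and 27 bases before the start, and both held the E-box of basic helix-loop-helix factors 185 and 142 bases before it. Gadd45a held neither within this window, and it held a p53 half-site (GGGCTAGCCC) 40 bases before the start. Plk2 held the cyclic AMP response element 62 bases before the start. CCAAT was present in all 3 Gadd45 promoters. No 2 of the matched motifs overlapped in these promoters.

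Across the 23 measured members with a promoter in the RefSeq table, 3 held TATAAA (Gadd45b, Gadd45g and Eda2r), and 14.3% of 27025 genes did. The E-box was found in 5 (21.7%, against 6.86% of genes), the CCAAT box in 15 (65.2%, against 37.5%) and the GC box in 17 (73.9%, against 35.4%). Besides Gadd45b and Gadd45g, the E-box members were Bbc3, Fas and Aen, none of which passed the test. Phlda3, which also rose, held the GC box but neither TATAAA nor the E-box. The cyclic AMP element was found in Plk2 and Btg2 (8.7%, against 1.77%). The p53 half-site was found in 7 (30.4%, against 8.2%), namely Mdm2, Ccng1, Gadd45a, Sesn1, Ei24, Aen and Polk. The comparison set was all 27025 genes with a promoter, not limited to array genes or to genes as bright as the members. Member shares exceeded it for every single motif but TATAAA, so the excess was not particular to the p53 half-site. These shares were not tested. No member held 2 half-sites with up to 13 bases between them, the full p53 element, and 18 of all genes (0.0666%) did. Only exact matches to the half-site pattern of 10 letters were counted, so an element with any mismatch was missed. Elements of p53 often lie in introns or farther upstream, which these windows do not cover, and a match is not a site in use.

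Plk2, a polo-like kinase of centriole duplication and stress, read 9.43, 9.43 and 9.37 in control and 9.82, 9.85 and 9.78 in overexpression. The groups were tight and did not overlap, and Plk2 rose 1.33-fold (0.41 ± 0.067, adjusted p = 0.00648), a call that held in all 14 alternative settings. Phlda3, which keeps the survival kinase Akt from the membrane, read 8.99, 9.12 and 9.05 in control and 9.37, 9.37 and 9.31 in overexpression. It rose by 0.3 ± 0.071 (adjusted p = 0.0334), without overlap. That call ended when any 1 array was left out (adjusted p from 0.0504 to 0.139) and under quantile normalization (0.0524).

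Zmat3, an RNA-binding zinc finger protein, was the gene of this group that fell. It read 8.20, 8.22 and 8.20 in control and 7.92, 7.98 and 7.75 in overexpression, with a wider spread after Prmt6 (-0.32 ± 0.08, adjusted p = 0.0386). Its call ended when any 1 array was left out (0.0501 to 0.12) and with arrays centred on medians (0.0802). The sestrins, which restrain the growth kinase complex mTORC1 under stress, lay at 0.01 ± 0.081 for Sesn1 and -0.047 ± 0.07 for Sesn2 without passing, and Sesn1 was at -0.037 without overexpression replicate 1. Sesn3, their paralog and not a member, fell by 0.41. The antiproliferative Btg2 was at -0.05 and the G2 arrest gene Rprm at 0.053 (adjusted p = 0.74 and 0.744), with overlapping groups.

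**Figure D3:**
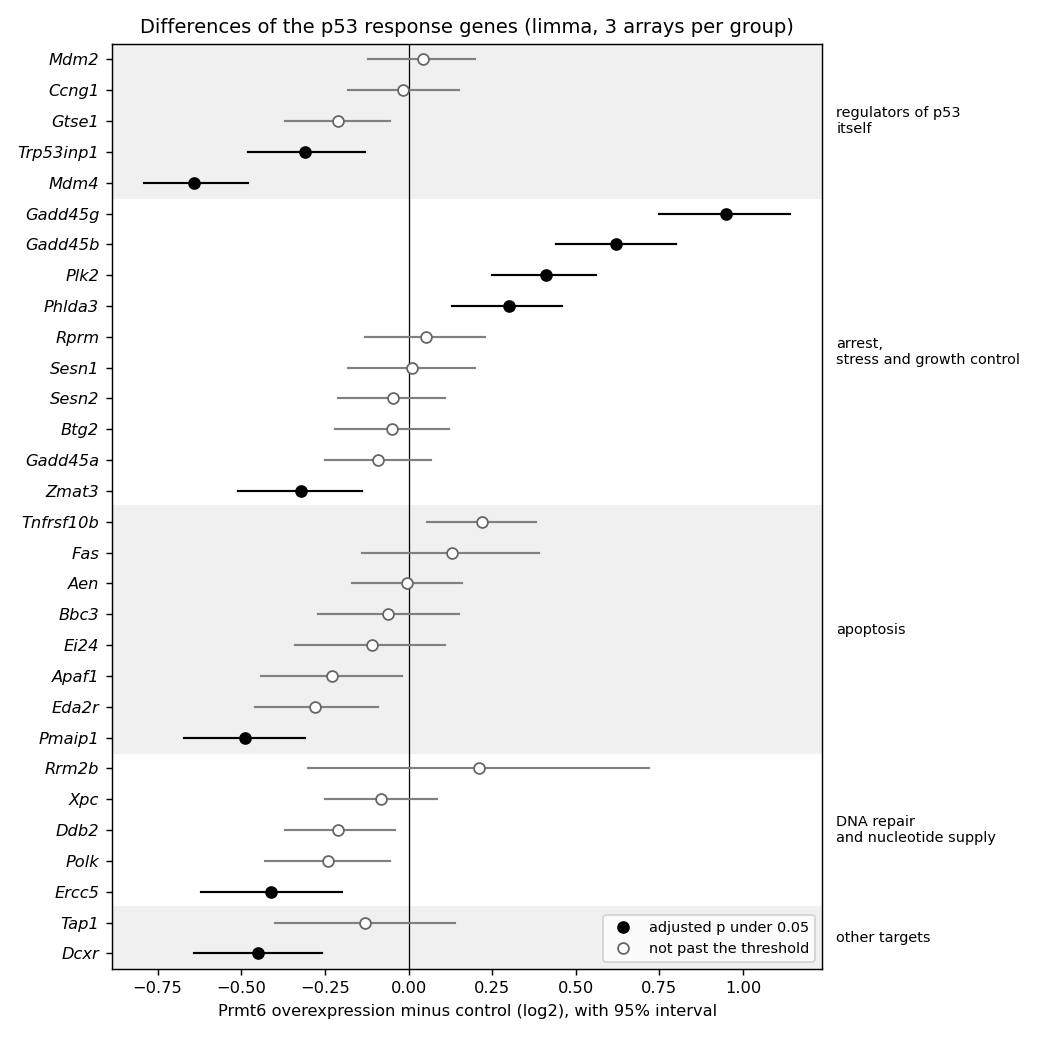
Difference of Prmt6 overexpression minus control (log2) for the 30 measured p53 response genes, grouped by role, with the 95% interval of limma (3 arrays per group); filled circles passed the adjusted threshold. All 4 rises are in the arrest, stress and growth control group, and the 6 falls are spread over all 5 groups. Of all genes, 7.05% rose and 3.25% fell.

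Of the 8 measured apoptosis genes, Pmaip1 fell and 7 did not pass, where 3.25% of all genes fell and 10.3% were called. Pmaip1 (Noxa) is a BH3-only protein that neutralises the survival factor Mcl1. It read 7.77, 7.61 and 7.66 in control and 7.20, 7.10 and 7.26 in overexpression, a clear gap between the groups (-0.49 ± 0.079, adjusted p = 0.00549) that passed in all 14 alternative settings. Bbc3 (Puma), the other BH3-only gene among the members, read 7.08, 7.14 and 7.06 against 6.95, 6.94 and 7.21. Overexpression replicate 3 was the highest of its 6 arrays and the other two were the lowest, so the groups overlapped (-0.06 ± 0.09, adjusted p = 0.751).

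None of the 3 receptors of the tumour necrosis factor family passed the test. Tnfrsf10b, the mouse TRAIL death receptor, read 7.67, 7.56 and 7.69 in control and 7.86, 7.87 and 7.84 in overexpression. Its groups did not overlap, yet 0.22 ± 0.071 did not pass (adjusted p = 0.0962). Eda2r, the receptor for ectodysplasin A2, read 9.0, 8.86 and 9.01 against 8.76, 8.70 and 8.58, lower in each array, at -0.28 ± 0.081 (adjusted p = 0.0704). The death receptor Fas was dim, between 4.34 and 4.79 over the 6 arrays, and its groups overlapped (0.13 ± 0.12, adjusted p = 0.571).

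Apaf1, the scaffold of the apoptosome, read 8.51, 8.61 and 8.66 in control and 8.53, 8.28 and 8.28 in overexpression. Overexpression replicate 1 lay within the control range and the others below it (-0.23 ± 0.092, adjusted p = 0.164). The nuclease Aen, at -0.0033 ± 0.072, differed least of all members, and was at 0.043 with arrays centred on medians. Ei24, a protein of the endoplasmic reticulum, was at -0.11 ± 0.1 (adjusted p = 0.545).

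Of the 5 genes of DNA repair and nucleotide supply, Ercc5 fell and 4 did not pass, where 3.25% of all genes fell. Ercc5 (Xpg) is the endonuclease that cuts on the 3′ side of a lesion in nucleotide excision repair. It read 8.31, 8.29 and 8.44 in control and 8.09, 7.82 and 7.89 in overexpression, without overlap (-0.41 ± 0.091, adjusted p = 0.0241). The call held without overexpression replicate 1 (0.0137) and ended without any other 1 array (0.0569 to 0.0974).

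The lesion sensors of the same pathway, Ddb2 and Xpc, were at -0.21 ± 0.073 and -0.083 ± 0.074 (adjusted p = 0.122 and 0.554). Ddb2 read 6.55, 6.41 and 6.56 against 6.29, 6.33 and 6.28, a small gap without overlap, while the Xpc groups overlapped. Polk, a polymerase that copies past lesions, read 7.46, 7.49 and 7.64 against 7.28, 7.37 and 7.22, again without overlap (-0.24 ± 0.081, adjusted p = 0.106). Rrm2b, the p53-inducible subunit of ribonucleotide reductase, had the widest spread of all members. It read 6.14, 5.37 and 5.38 in control and 5.59, 5.76 and 6.17 in overexpression, with 1 high array in each group (0.21 ± 0.22, 95% interval -0.3 to 0.72). Rrm2b was the only one of the 20 members short of the threshold whose interval reached past a 1.5-fold change; the intervals of the other 19 lay within 1.5-fold either way.

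Of the remaining targets, Dcxr, a reductase of sugars and dicarbonyls, read 8.77, 8.77 and 8.58 in control and 8.18, 8.24 and 8.35 in overexpression. It fell by 0.45 on the log2 scale (SE 0.085, adjusted p = 0.0118), and this call ended without control replicate 1 (0.0589) or control replicate 2 (0.0537). Tap1, the peptide transporter of antigen presentation, read 6.65, 6.66 and 6.53 against 6.70, 6.51 and 6.24, with overlapping groups (-0.13 ± 0.12, adjusted p = 0.557).

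**Figure D4:**
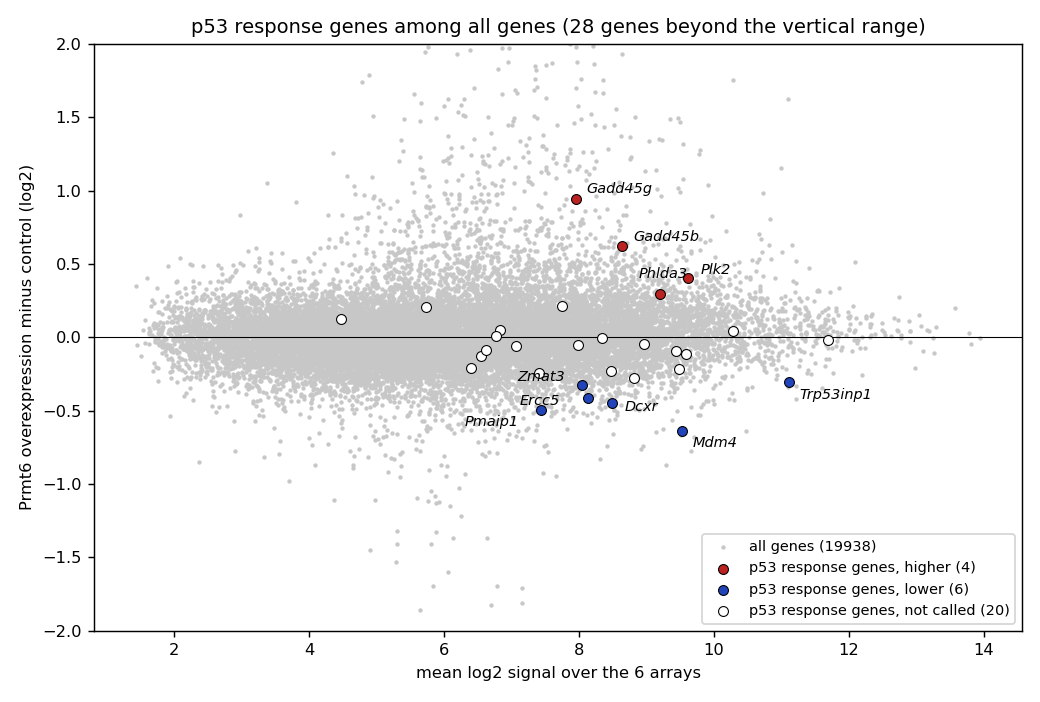
Mean log2 signal over the 6 arrays against the difference of Prmt6 overexpression minus control (log2) for 19938 genes (grey) and the 30 measured p53 response genes (large points, filled where they passed the threshold). Among the members, Gadd45g lies highest and Mdm4 lowest, and 28 other genes lie beyond the vertical range.

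Genes around the pathway, from lists that overlap with no member, moved both ways. Of all genes, 7.05% rose and 3.25% fell, 10.3% in all, and 16.1% were called among genes at or above the median gene mean. The shares called in the apoptosis and excision repair lists below lay between 10.3% and 16.1%. Those of the regulator and target lists were higher. These counts are a description without a test. Of 25 regulators of p53, 3 rose, 5 fell and 17 did not pass (median -0.13). Cdkn2a, whose Arf product holds Mdm2 off p53 and which also encodes the CDK inhibitor Ink4a, rose by 0.88 ± 0.1 (adjusted p = 0.000992). Setd7, a lysine methyltransferase, rose by 0.65 (adjusted p = 0.00733), and Kmt5a by 0.26 (adjusted p = 0.0452). The DNA damage kinase genes Prkdc and Atr fell by 0.55 and 0.48 (adjusted p = 0.00297 and 0.00461). Atm, the third kinase of this family on the list, fell by 0.38, the p53 relative Trp73 by 0.47 and the break-repair factor Trp53bp1 by 0.34; these 3 and Kmt5a were named after their values were seen. The Kmt5a call ended whichever array was left out (0.0527 to 0.166) and under quantile normalization (0.0937). Those of Atm and Trp53bp1 held only without overexpression replicate 1 (0.0111 and 0.0164) and ended without any other array (up to 0.0839 and 0.0881).

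Of 42 other p53 target genes, 37 were measured, of which 7 rose, 10 fell and 20 did not pass (median -0.047). The rises were led by the matrix glycoprotein Thbs1 (2.63 ± 0.071), the 14-3-3 protein gene Sfn (1.08 ± 0.083), the desmosome-associated Perp (1.01 ± 0.066) and the decoy receptor gene Tnfrsf23 (0.82 ± 0.094). Sfn and Perp are abundant in epithelia. Cdkn1a was among the 5 genes of this list not analysed here.

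Of 27 measured genes of the apoptosis machinery, 4 rose and 23 did not pass (median 0.0067). They were the initiator caspase gene Casp8 (0.9 ± 0.08, adjusted p = 0.000226), the survival gene Bcl2l1 (0.51 ± 0.094), its pore-forming opponent Bak1 (0.38 ± 0.073) and Casp6 (0.34 ± 0.083). Without control replicate 1 the calls of Bcl2l1 (adjusted p = 0.0525) and Bak1 (0.0657) ended, and the Casp6 call held without control replicate 3 or overexpression replicate 1 but was lost in the other 4 cases (0.081 to 0.143). Of 29 measured genes of nucleotide excision repair and translesion synthesis, 3 rose, 1 fell and 25 did not pass (median 0.067). Rev1, a scaffold for translesion polymerases, fell by 0.65 ± 0.065 (adjusted p = 0.000436). Ercc1, part of the nuclease that cuts on the 5′ side of a lesion, rose by 0.44 ± 0.067 (adjusted p = 0.00406), while Ercc5, which cuts on the other side, fell. The ubiquitin ligase subunit genes Rbx1 and Cul4a rose by 0.31 and 0.26. The Cul4a call ended without any 1 array (0.0675 to 0.179), and that of Rbx1 without any control array or overexpression replicate 2 (0.079 to 0.0939).

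**Figure D5:**
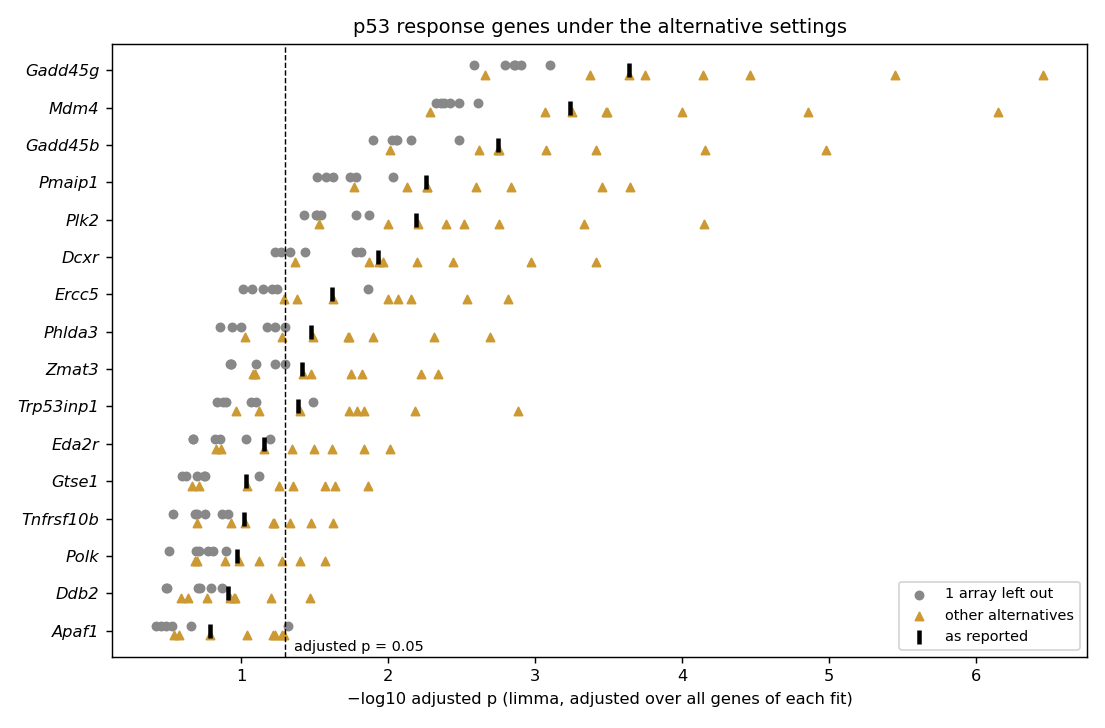
Adjusted p (−log10, limma) of the 16 p53 response genes that passed the threshold in at least 1 setting: as reported (bar), with 1 array left out (circles) and under the other alternatives (triangles); the dashed line marks 0.05. Gadd45g, Mdm4, Gadd45b, Pmaip1 and Plk2 lie to the right of the line throughout, and the other 11 have points on both sides.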

How the data were processed

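RNA from 6 samples (5 ug each) was hybridised to 1 Affymetrix array per sample. The deposited values are log2 signals made with robust multi-array average (RMA), per the submitters' processing notes. RMA corrects background, equalizes arrays and summarizes probes, so it would take out most of any shift common to the bulk of genes. Its version and settings: not given in the sources used here. Array medians ran from 5.6 to 5.62 in control and from 5.54 to 5.59 in overexpression. No detection calls were used, and with 3 arrays per group the precision is limited by their number.

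Of 35556 probe sets, 21789 had 1 symbol in the platform annotation (2016), 1621 had several and 12146 had none; 21698 of the first matched GRCm38.p6 gene identifiers. The groups were compared in R 4.3.3 with limma 3.58.1 (lmFit, eBayes; two-sided, no covariates), with Benjamini-Hochberg adjustment over 19938 genes. The procedure was also run on simulated data with independent noise and with rises only. That setting is simpler than these arrays, so the run is no support for the calls. Exact permutation tests used SciPy 1.17.1 and figures matplotlib 3.10.9.

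The rule for named genes took all measured members and up to 4 passing genes of each list; further list genes were named after their values were seen. The members and lists were chosen with earlier results of these data known, and the motifs and gene pairs after values or sequences were seen. The alternatives left out single arrays or dim genes, added the replicate number as a block, centred or quantile-normalized the arrays, averaged the probe sets of a gene, used a trended and robust prior, or weighted the arrays.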

Additional observations from a re-analysis of the deposited data

How the results depend on the processing

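Of the 10 called members, Gadd45g, Gadd45b, Plk2, Mdm4 and Pmaip1 were called in all 14 alternative settings, the other 5 lost the call in at least 1, and none of the 10 changed sign. The count of members that rose stayed between 3 and 5, where 4.32% to 19.4% of all genes in each fit rose. It was 5 when genes dimmer than the median were dropped, where 19.4% of the genes kept rose. The count that fell ran from 2 to 6 when 1 array was left out (1.4% to 3.83% of all genes). It was 3 with the replicate block (1.92% of all genes). It rose to 10 of the members when genes dimmer than the median were dropped (10.8% of the genes kept). With the replicate block, the calls of Phlda3 (adjusted p = 0.0937), Zmat3 (0.0829), Trp53inp1 (0.109) and Ercc5 (0.0509) ended. Among 33 called genes of the pathway lists, 10 lost the call with that block (adjusted p from 0.0503 to 0.131), namely Atm, Trp53bp1, Kmt5a, Slc19a2, Ptprv, Fbxw7, Pml, Casp6, Rbx1 and Cul4a. Same-numbered arrays did not deviate together (correlations of -0.019, -0.0158 and -0.117), so the numbers were not taken as pairs. The members' median ran from -0.077 to -0.033 when 1 array was left out, and was -0.025 with arrays centred on medians. Short of the threshold, 6 members passed in at least 1 setting: Eda2r in 5 settings, Gtse1 in 4, Tnfrsf10b in 3, Polk in 2, and Ddb2 and Apaf1 in 1 each. Signs turned for 5 members near 0: Mdm2 (-0.032, quantile normalization), Ccng1 (0.03 centred, -0.053 to 0.012 with 1 array left out), Aen (0.043 centred, -0.032 to 0.028 with 1 array left out), Sesn1 (-0.037 to 0.057) and Rprm (-0.01 to 0.09).

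Over all genes, rises numbered 862 to 1232 and falls 280 to 763 with 1 array left out. Falls numbered 383 with the replicate block, 990 and 1079 under the 2 filters on dim genes (30th percentile, median), 1115 under the trended, robust prior and 1098 with array weights. Rises made up 68.5% of calls, and 80.4% with arrays centred on medians, where the median of all genes moved to 0.047. Fas, and under the stricter filter Rrm2b, had no value under the filters on dim genes.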

Other observations

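Among the other p53 target genes that passed, 13 fell outside the 4 largest changes and are named here after their values were seen. Lower were the T cell costimulatory ligand Cd80 (-0.63 ± 0.092), the microtubule-associated Ckap2 (-0.53 ± 0.084) and Psrc1 (-0.46 ± 0.07), and the death-domain adaptor Pidd1 (-0.5 ± 0.088). Zfp365 (-0.47), Sesn3 (-0.41), the thiamine transporter Slc19a2 (-0.4), the phosphatase Ptprv (-0.38), the ubiquitin ligase subunit Fbxw7 (-0.33) and the nuclear body protein Pml (-0.26) were lower as well. Higher were the growth factor binding protein Igfbp3 (0.62 ± 0.08), Crip2 (0.48) and the peroxide-reducing enzyme Gpx1 (0.42). Their adjusted p ran from 0.00179 to 0.0476 (limma, 3 arrays per group). Calls ended for Pml without any 1 array (0.0595 to 0.164), for Slc19a2 and Fbxw7 without any array but overexpression replicate 1 (0.0581 to 0.0852 and 0.0756 to 0.136), for Ptprv without control replicate 1 or overexpression replicate 1 or 2 (0.052 to 0.083), and for Crip2 without control replicate 1 or 3 or overexpression replicate 2 (0.0557 to 0.0573). Those of Pml (0.0919) and Fbxw7 (0.0777) also ended with arrays centred on medians, and that of Fbxw7 with the mean of its probe sets (0.127).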
